A study of Mus musculus with 4 samples.

Results

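DNA methylation was examined at 6 genes of the dopaminergic (DA) neuron, the transcription factor genes Pitx3 and Nr4a2 (Nurr1) and the effector genes Th, Slc6a3, Slc18a2 and Drd2. Each gene was taken as a fixed window around it in the mm9 mouse genome (NCBIM37, the build whose chromosome lengths fit the files). The windows measured 17001 bp at Pitx3 (chromosome 19), 35001 bp at Nr4a2 (chromosome 2), 13001 bp at Th (chromosome 7), 52001 bp at Slc6a3 (chromosome 13), 42001 bp at Slc18a2 (chromosome 19) and 82001 bp at Drd2 (chromosome 9). The windows held 356 cytosine positions with at least 5 calls in all 4 libraries, of 1291 positions listed in any library. A call is the reading of a cytosine in a sequenced read as methylated or unmethylated. Positions less than 100 bp apart were joined into runs, which gave 35 runs in the windows, of 109955 runs in the genome. The 15 runs with at least 5 positions were tested, of 31564 in the genome, and held 307 of the 356 positions. Runs are numbered along each gene in the direction of its transcription, and the methylation level of a run is the percentage of methylated calls among all its calls.

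Reduced representation bisulfite sequencing (RRBS), in which genomic DNA is cut at CCGG by the enzyme MspI before bisulfite conversion, was performed with 1 library per cell population. The undifferentiated induced pluripotent stem cells (iPSCs) were labelled Pitx3 Gfp/+. The NESTIN-GFP precursors were collected after 14 days of differentiation from an iPSC line labelled Nestin Gfp/+, a reporter line that differs from that of the other cultures, and their label calls them neurons. The iPSC-derived DA neurons (iPSC-DA neurons) were sorted for PITX3-GFP after 4 weeks of differentiation, and the primary mesodiencephalic DA neurons (mdDA neurons) were sorted for the same reporter from E14.5 embryos, both with the genotype Pitx3 Gfp/+. The iPSCs of both lines had been made from fibroblasts with retroviral Oct4, Klf4, Sox2 and cMyc, and a sorted population is defined by its reporter and not by a complete set of markers. The libraries held 31419979 to 79648099 calls, and at the 356 positions the median number of calls was 82 in iPSCs, 17 in NESTIN-GFP precursors, 74 in mdDA neurons and 80.5 in iPSC-DA neurons. With 1 library per population there was no spread between replicates, and each comparison is between libraries and has no replicate check. Intervals (95%, Wilson) cover counting error only, since calls of a read are linked and PCR copies reads.

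Pitx3 encodes a homeodomain transcription factor that, within the brain, marks mdDA neurons, and Nr4a2 encodes an orphan nuclear receptor needed for the formation and upkeep of these neurons. Both are known to act on the effector genes. Th encodes tyrosine hydroxylase, the rate-limiting enzyme of dopamine synthesis, Slc18a2 the vesicular monoamine transporter (VMAT2) that loads dopamine into vesicles, Slc6a3 the plasma membrane dopamine transporter (DAT) that takes it back up, and Drd2 a dopamine receptor that also serves as an autoreceptor on DA neurons. Methylation of cytosines in CpG dinucleotides is usually sparse in CpG-rich promoters and dense in most of the remaining genome, and a densely methylated promoter is usually inactive.

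The transcription starts of 4 genes could be placed on the positions of the files by matching the CpGs of their RefSeq promoters, and these promoters show which CpGs the assay reached. For each, the 250 bases before the start are printed 5′ to 3′ on the strand of the gene, from RefSeq sequence of the build GRCm38.p6, with capitals at CpGs that had at least 5 calls in all 4 libraries on at least 1 strand. The capital that ends the Nr4a2 stretch belongs to a CpG whose G lies past the printed bases. In that build they lie at chr19:46148326-46148575 (minus strand) for Pitx3, chr2:57124004-57124253 (minus strand) for Nr4a2, chr13:73536497-73536746 (plus strand) for Slc6a3 and chr9:49340153-49340402 (plus strand) for Drd2.
Nr4a2: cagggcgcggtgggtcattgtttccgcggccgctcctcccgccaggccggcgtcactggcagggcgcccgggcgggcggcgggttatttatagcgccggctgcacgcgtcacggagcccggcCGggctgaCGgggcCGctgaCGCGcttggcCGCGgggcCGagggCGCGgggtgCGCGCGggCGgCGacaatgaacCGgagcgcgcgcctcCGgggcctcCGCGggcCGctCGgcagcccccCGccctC
Drd2: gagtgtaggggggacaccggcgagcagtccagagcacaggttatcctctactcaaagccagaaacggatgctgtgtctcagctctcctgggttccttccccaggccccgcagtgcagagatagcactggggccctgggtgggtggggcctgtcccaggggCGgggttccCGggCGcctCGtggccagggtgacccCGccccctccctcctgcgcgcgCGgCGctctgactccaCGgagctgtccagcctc
Pitx3: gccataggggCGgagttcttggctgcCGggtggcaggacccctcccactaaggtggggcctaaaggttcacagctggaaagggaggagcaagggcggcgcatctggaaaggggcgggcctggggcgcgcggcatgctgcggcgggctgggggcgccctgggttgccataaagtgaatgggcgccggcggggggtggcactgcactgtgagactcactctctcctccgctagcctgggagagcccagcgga
Slc6a3: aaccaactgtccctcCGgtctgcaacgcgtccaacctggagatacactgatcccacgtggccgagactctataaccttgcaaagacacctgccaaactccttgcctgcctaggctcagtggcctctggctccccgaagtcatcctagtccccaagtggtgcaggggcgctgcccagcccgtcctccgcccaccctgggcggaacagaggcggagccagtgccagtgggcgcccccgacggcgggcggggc
Among the CpGs of these 250 bases, 22 of 44 were covered at Nr4a2, 8 of 15 at Drd2, 2 of 16 at Pitx3 and 1 of 16 at Slc6a3. The MspI motif CCGG, which reads the same on both strands, occurred 7 times at Nr4a2, 3 times at Drd2, 2 times each at Pitx3 and Slc6a3, 1 time at Slc18a2 and 0 times at Th in the window from 250 bases before to 50 after the start. Of 32851 RefSeq promoters of that length, 52.8% held the motif. In mm9 the starts were placed at chr2:56976414 for Nr4a2, chr9:49148508 for Drd2, chr19:46222815 for Pitx3 and chr13:73674195 for Slc6a3. At Nr4a2 all 87 positions that any library listed under the promoter fell on its CpGs, with 15 at the next best place on the chromosome. The corresponding numbers were 40 and 9 at Drd2 and 26 and 9 at Slc6a3. At Pitx3 the search of the chromosome gave no accepted place. A search of the Pitx3 window alone gave 12, with 3 at the next best place in that window. The starts of Th and Slc18a2 could not be placed. Exons and introns of mm9 were not used here, so runs are given by their distance from the start.

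In iPSC-DA neurons 9 of the 15 tested runs were called more highly methylated than in mdDA neurons, and 0 were called less methylated. A run was called where the adjusted p-value of a two-sided Fisher's exact test (Benjamini-Hochberg adjustment over all 31564 runs) was under 0.05 and the difference was at least 20 percentage points. Genome-wide, 24.3% of tested runs were called higher in iPSC-DA neurons and 1.66% lower. The member runs did not exceed 10.7% in mdDA neurons, so they could not be called lower and the 0 was fixed. The median difference was 27.5 points over the member runs and 0.89 points over all runs. All 15 member runs were under 20% in iPSCs, and among the 23398 runs of the genome with that property 29% were called higher in iPSC-DA neurons. Without the limit on size, 13 of the 15 runs had an adjusted p-value under 0.05, against 52.2% of all runs. The called runs comprised 4 of 7 at Nr4a2, 2 of 2 at Drd2, 1 of 1 at Slc6a3, 1 of 1 at Slc18a2 and 1 of 4 at Pitx3, while Th had no run long enough to be tested.

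**Figure D1:**
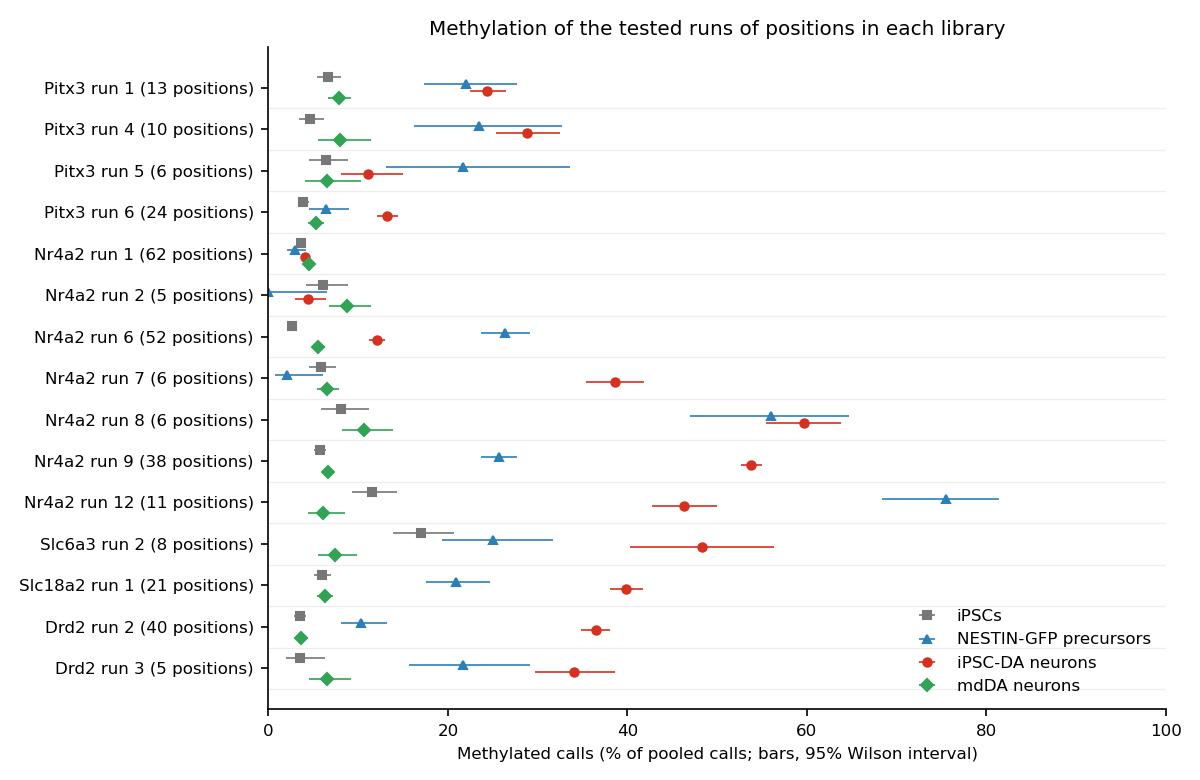
The x axis gives the methylation level of each tested run (percent of pooled calls) in each of the 4 libraries, marked by symbol, with 95% Wilson intervals as bars, and the y axis lists the 15 runs. The iPSC and mdDA symbols stay between 2.6% and 17.0% in all 15 runs, while the iPSC-DA symbols range from 4.11% to 59.7%.

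Across the tested runs the levels in mdDA neurons ranged from 3.66% to 10.7% and those in iPSCs from 2.6% to 17.0%. In iPSC-DA neurons they ranged from 4.11% to 59.7% and in the precursors from 0% to 75.5%. Of the 307 single positions of these runs, 280 were under 20% in mdDA neurons and 291 in iPSCs, compared with 145 in iPSC-DA neurons and 184 in the precursors. Intermediate levels of 40% to 60% were found at 73 of the positions (23.8%) in iPSC-DA neurons, at 36 in the precursors, at 2 in mdDA neurons and at 1 in iPSCs. Levels over 60% were found at 17 positions in iPSC-DA neurons, at 28 in the precursors, and at 0 in both mdDA neurons and iPSCs. Shares over all covered positions of the genome were not computed, here or for the counts of positions given below for each gene. A level of a bulk library does not tell partial methylation in every cell from full methylation in some of the cells.

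**Figure D2:**
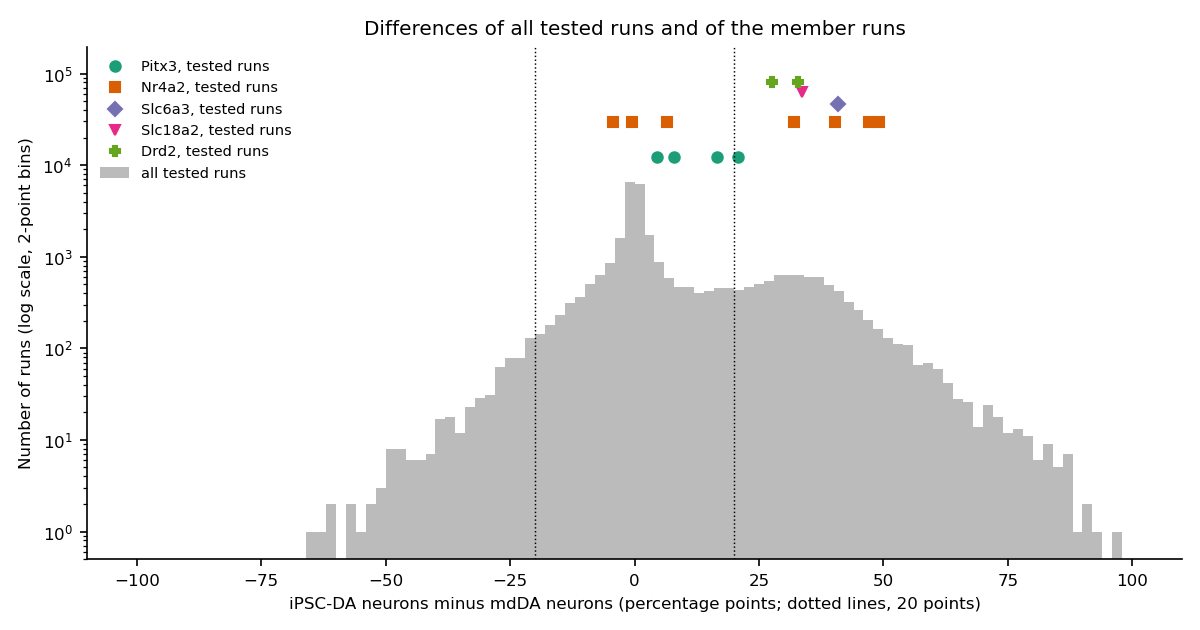
The histogram gives the number of tested runs of the genome (log scale, bins of 2 points) by the difference in level between iPSC-DA and mdDA neurons, and the symbols above it mark the 15 member runs by gene, at heights that carry no value. The histogram has its peak near 0 and a broad shoulder above 20 points, in which 9 of the member symbols lie.

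Pitx3, the gene whose reporter was used to sort both neuron populations, had the smallest difference over its window, 12.3 points, among the genes with tested runs. Run 1 (13 positions, chr19:46223038-46223233), 418 to 223 bases upstream of the start, had a level of 6.58% in iPSCs, 22.0% in NESTIN-GFP precursors, 7.82% in mdDA neurons and 24.4% in iPSC-DA neurons. The iPSC-DA level was above the mdDA level by 16.6 points (Fisher's exact test, adjusted p = 1.62e-39), which is under the limit of 20 points, and 10 of the 13 positions were higher. Single positions of this run ranged from 0% to 50.5% in iPSC-DA neurons, with a median of 20.8%, and from 0% to 31.3% in mdDA neurons, with a median of 2.78%. No covered position lay between this run and the start, and 4 positions 98 to 119 bases downstream of it had 20.4% in iPSC-DA and 8.02% in mdDA neurons. In the precursors the same 4 positions had 78.1%, from only 8 calls at each position (32 in all).

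The 3 other tested runs of Pitx3 lay 11642 to 12427 bases downstream of the start, toward the end of a gene that is 13045 bases long in GRCm38.p6. Run 4 (10 positions, chr19:46210970-46211173) had 4.59% in iPSCs, 23.5% in precursors, 8.01% (95% CI 5.56% to 11.4%) in mdDA neurons and 28.8% (95% CI 25.3% to 32.5%) in iPSC-DA neurons. This was the called run of the gene, with a difference of 20.8 points, close to the limit of 20 (adjusted p = 1.67e-14, Fisher's exact test), and it was 14.8 points as an unweighted mean of its positions. Run 6 (24 positions, chr19:46210388-46210681), with the most positions, had 3.86%, 6.39%, 13.3% and 5.26% in iPSCs, precursors, iPSC-DA and mdDA neurons, respectively, a difference of 7.99 points between the DA libraries. Run 5 (6 positions) had the smallest difference of the gene, with 6.53% in mdDA and 11.1% in iPSC-DA neurons (adjusted p = 0.133, Fisher's exact test). With gaps under 200 bp runs 4, 5 and 6 formed a single run with a difference of 9.76 points, which was not called. With a minimum of 1 call, the run that holds run 5 differed by 7.9 points.

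The Pitx3 window was also examined for depth, because 3 of the 4 libraries carry a Gfp allele of Pitx3. Relative to the precursors and to the autosomes, calls per position in the window differed by 0.94 (log2) in iPSCs, 0.52 in mdDA neurons and 0.56 in iPSC-DA neurons. The libraries labelled with the Gfp allele of Pitx3 had more calls there than the library without it, and the same sign in these 3 libraries was found at Nr4a2 (0.07, 0.23 and 0.31) and Slc18a2 (0.11, 0.28 and 0.37). Over the 5 windows other than Pitx3 the measure ranged from -2.33 to 0.37. Within Pitx3 it was close to 0 for mdDA neurons in run 4 (0.01) and 0.16 in run 5. How the Gfp allele changes the window was not given in the sources used here.

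At Nr4a2 the start had a low level in all 4 libraries, whereas runs downstream of it differed widely. Run 1 (62 positions, chr2:56976117-56976542), which holds the start and reaches from 128 bases upstream to 297 downstream, had the most positions of all member runs. Its level was 3.66% in iPSCs (95% CI 3.18% to 4.22%), 2.91% in precursors (2.02% to 4.17%), 4.57% in mdDA neurons (4.02% to 5.19%) and 4.11% in iPSC-DA neurons (3.61% to 4.66%). The DA libraries differed by -0.46 points (adjusted p = 0.38, Fisher's exact test), and the median position was at 0% in each of the 4 libraries. The highest single position reached 28.2% in iPSC-DA and 39.5% in mdDA neurons. Run 2 (5 positions, chr2:56975925-56976006), 408 to 489 bases downstream, had the lowest (most negative) difference among the 15 runs, with 8.79% in mdDA and 4.42% in iPSC-DA neurons (-4.37 points, adjusted p = 0.00765, Fisher's exact test). With a minimum of 1 call, coverage in the DA libraries alone or gaps under 200 bp, the run that holds it differed by -0.57, -0.68 or -0.86 points, with adjusted p-values of 0.203, 0.127 and 0.0517 in Fisher's exact test. Precursors had 0 methylated of 55 calls there, which allows a level of up to 5.45%.

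The largest differences of the tested member runs were found downstream of the start of Nr4a2. Run 8 (6 positions, chr2:56964936-56964974), 11440 to 11478 bases downstream of the start, had 8.13% in iPSCs, 56.0% in precursors, 10.7% (95% CI 8.14% to 13.9%) in mdDA neurons and 59.7% (95% CI 55.4% to 63.8%) in iPSC-DA neurons. The difference of 49.0 points between the DA libraries was larger than in 97.3% of all tested runs. Run 9 (38 positions, chr2:56964053-56964452), 11962 to 12361 bases downstream, had 5.71% in iPSCs, 25.6% in precursors, 6.68% (95% CI 6.07% to 7.36%) in mdDA neurons and 53.8% (95% CI 52.6% to 55.0%) in iPSC-DA neurons. Each of its 38 positions was higher in iPSC-DA than in mdDA neurons by at least 20 points. They ranged from 42.1% to 72.7% in the former and from 0% to 33.3% in the latter, without overlap between these libraries. In how many runs of the genome positions do not overlap was not counted. The difference of run 9, 47.1 points, was larger than in 96.8% of all tested runs. In the precursors the positions of run 9 ranged from 3.23% to 83.3%.

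Between the start and these runs, the level of iPSC-DA neurons differed from run to run. Run 6 (52 positions, chr2:56966960-56967450), 8964 to 9454 bases downstream, had 2.6% in iPSCs, 26.3% in precursors, 5.58% in mdDA neurons and 12.1% in iPSC-DA neurons. In precursors its positions fell into blocks, with 27 of 52 positions at 0% and 22 at 40% or more, and the median of the positions was 0%. The positions had a median of 12 calls in precursors, and neighbours in a block often had the same number of calls. Whether the blocks come from linked calls of a few reads was not tested. Run 7 (6 positions, chr2:56966727-56966853), 9561 to 9687 bases downstream and next to run 6, had 38.6% in iPSC-DA neurons but 2.11% in precursors, 5.84% in iPSCs and 6.53% in mdDA neurons. Its 6 positions were between 26.3% and 52.6% in iPSC-DA neurons and between 0% and 18.0% in mdDA neurons. With coverage needed in the DA libraries alone, or with gaps under 200 bp, the run that holds it differed by 10.8 or 10.2 points between the DA libraries and was not called. Run 12 (11 positions, chr2:56956432-56956598) lay 19816 to 19982 bases downstream, beyond the 17174 bases of the gene in GRCm38.p6 and on the side of the neighbouring gene Kcnj3. It had 11.6% in iPSCs, 75.5% in precursors, 6.09% in mdDA neurons and 46.3% in iPSC-DA neurons. From 9561 bases downstream on, the 4 tested runs were called higher in iPSC-DA than in mdDA neurons. This boundary was drawn after the values were seen, and run 6, nearer to the start, differed by 6.49 points. The run at the start was low in all 4 libraries.

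**Figure D3:**
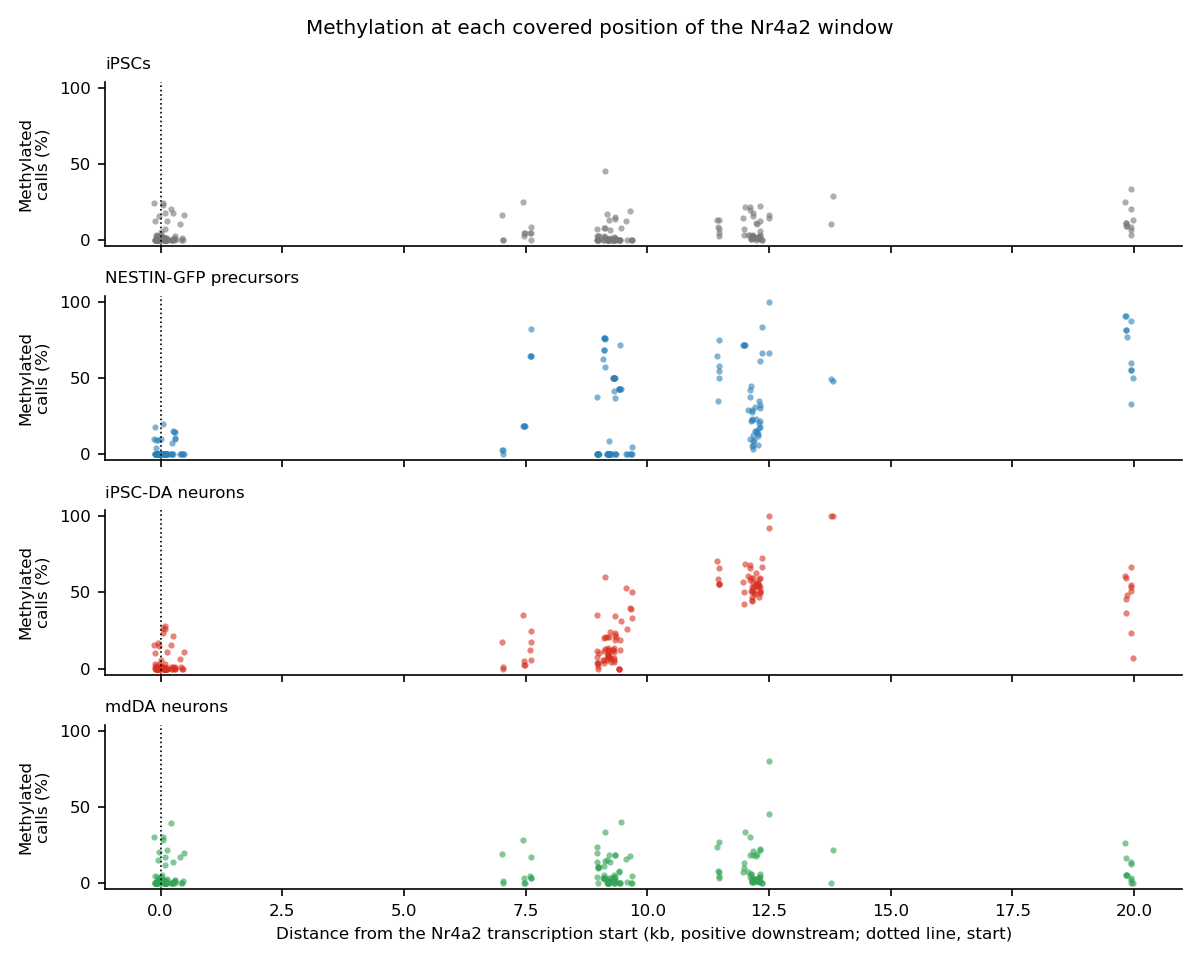
Each point is a covered position of the Nr4a2 window, with its distance from the transcription start in kb on the x axis (dotted line, start) and its methylated calls in percent on the y axis, in 1 panel per library. The 62 positions around the start stay low in all panels, and the 38 positions of run 9 stand between 42.1% and 72.7% in iPSC-DA neurons and between 0% and 33.3% in mdDA neurons.

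Th could be read at few positions. In its window 10 positions had at least 5 calls in all 4 libraries and 12 in both DA libraries, in runs of 1 to 4 positions, none of which was tested. Over the 10 positions the level was 84.5% in iPSCs (95% CI 77.7% to 89.5%), 94.1% in precursors (91.0% to 96.2%), 63.0% in mdDA neurons (54.9% to 70.4%) and 58.9% in iPSC-DA neurons (51.1% to 66.2%). The DA libraries differed by -4.15 points, with an interval from -14.9 to 6.78, so that a difference of the pooled calls was not detectable at this depth. The value depended on how positions were weighted, with -17.1 points as an unweighted mean of the 10 positions and 3.85 points over the 2 positions with at least 10 calls. Of the 10 positions, 7 were higher in mdDA neurons, 5 of them by at least 20 points, and 3 were higher in iPSC-DA neurons. The most deeply read position, chr7:150084856, had 82.6% of 46 calls methylated in iPSCs, 96.4% of 28 in precursors, 36.2% of 69 in mdDA neurons and 40.4% of 57 in iPSC-DA neurons. It was chosen after its values were seen, as was chr7:150082500, with 90% of 30 calls in iPSCs, 100% of 11 in precursors, 100% of 16 in mdDA neurons and 69.2% of 39 in iPSC-DA neurons. Th was the member in which the covered positions were mostly methylated in all 4 libraries.

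At Slc6a3 the covered positions lay close to the start and were more highly methylated in iPSC-DA than in mdDA neurons at 17 of 17 positions. The tested run 2 (8 positions, chr13:73673778-73673838), 417 to 357 bases upstream, had 17.0% in iPSCs, 25% in precursors, 7.39% (95% CI 5.49% to 9.87%) in mdDA neurons and 48.3% (95% CI 40.3% to 56.4%) in iPSC-DA neurons. The difference between the DA libraries was 40.9 points (adjusted p = 7.63e-27, Fisher's exact test). It was 25.4 points for the run that holds these positions when 1 call sufficed or when coverage was needed in the DA libraries alone, and 52.5 points as an unweighted mean. Calls of this run were uneven in iPSC-DA neurons, in which 7 of the 8 positions had 10 to 12 calls and the remaining position 68, and the median position stood at 75%. The mdDA level minus the iPSC level was -9.63 points (adjusted p = 9.71e-06, Fisher's exact test), under the limit of 20. Nearest to the start, 2 positions 14 and 22 bases downstream had 8.33% in iPSCs, 45.5% in precursors, 8.87% in mdDA neurons and 55.3% in iPSC-DA neurons, and were named after their values were seen.

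Slc18a2 had 1 tested run and its start could not be placed. Run 1 (21 positions, chr19:59335376-59335723) had 5.94% in iPSCs (95% CI 5.02% to 7.01%), 20.9% in precursors (17.5% to 24.7%), 6.25% in mdDA neurons (5.4% to 7.22%) and 39.8% in iPSC-DA neurons (38.0% to 41.7%). All 21 positions were higher in iPSC-DA than in mdDA neurons, 16 of them by at least 20 points, and the run differed by 33.6 points (adjusted p = 1.92e-205, Fisher's exact test). Single positions ranged from 6.12% to 60.1% in iPSC-DA neurons and from 0% to 21.4% in mdDA neurons. The lowest iPSC-DA positions lay near the centre of the run, at chr19:59335541 with 6.12% and chr19:59335560 with 12.2%. The other run of the window held 2 positions, at 87.0% in iPSCs, 96.2% in precursors, 89.1% in mdDA neurons and 87.7% in iPSC-DA neurons.

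Drd2 and Nr4a2 were the members with a tested run over a placed start, and at Drd2 this run was more highly methylated in iPSC-DA than in mdDA neurons. Run 2 (40 positions, chr9:49148419-49148813), from 89 bases upstream to 305 downstream of the start, had 3.49% in iPSCs (95% CI 2.9% to 4.19%), 10.4% in precursors (8.1% to 13.2%), 3.66% in mdDA neurons (3.07% to 4.36%) and 36.4% in iPSC-DA neurons (34.8% to 38.1%). The DA libraries differed by 32.8 points (adjusted p = 2.44e-270, Fisher's exact test), and 38 of 40 positions were higher in iPSC-DA neurons. The 2 exceptions had no methylated call in iPSC-DA neurons, with 0 of 78 calls 16 bases upstream and 0 of 214 calls 240 bases downstream, which allow levels of up to 3.85% and 1.4%. The other 38 positions of the run were between 19% and 58.7%. Run 3 (5 positions, chr9:49149274-49149368), 766 to 860 bases downstream, had 3.56%, 21.7%, 34.0% and 6.5% in iPSCs, precursors, iPSC-DA and mdDA neurons, a difference of 27.5 points between the DA libraries.

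At Drd2 the strands of some CpGs had different levels in iPSC-DA neurons. At 4 CpGs 244 to 259 bases downstream of the start, the cytosines of the strand of the gene had 28.3% to 34.1% and those of the opposite strand 50.4% to 53.7%. In the other libraries these cytosines were at 9.38% or less. The CpG 5 bases downstream had 44.7% and 58.3% on these strands, whereas the CpG 81 bases upstream had 28.6% and 29.4%, the latter from 17 calls. These CpGs were chosen after their values were seen. Over all member CpGs with at least 50 calls on each strand, the median difference between strands was 0.87 points in iPSCs (33 CpGs), 12.2 points in precursors (4 CpGs), 4.04 points in iPSC-DA neurons (33 CpGs) and 0.53 points in mdDA neurons (32 CpGs). Strands of a CpG come from separate reads. At the 3′ side of Drd2, 55175 to 55271 bases downstream, 4 positions had the opposite order, with 71.1% in iPSCs, 94.2% in precursors, 91.0% in mdDA neurons and 63.2% in iPSC-DA neurons.

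**Figure D4:**
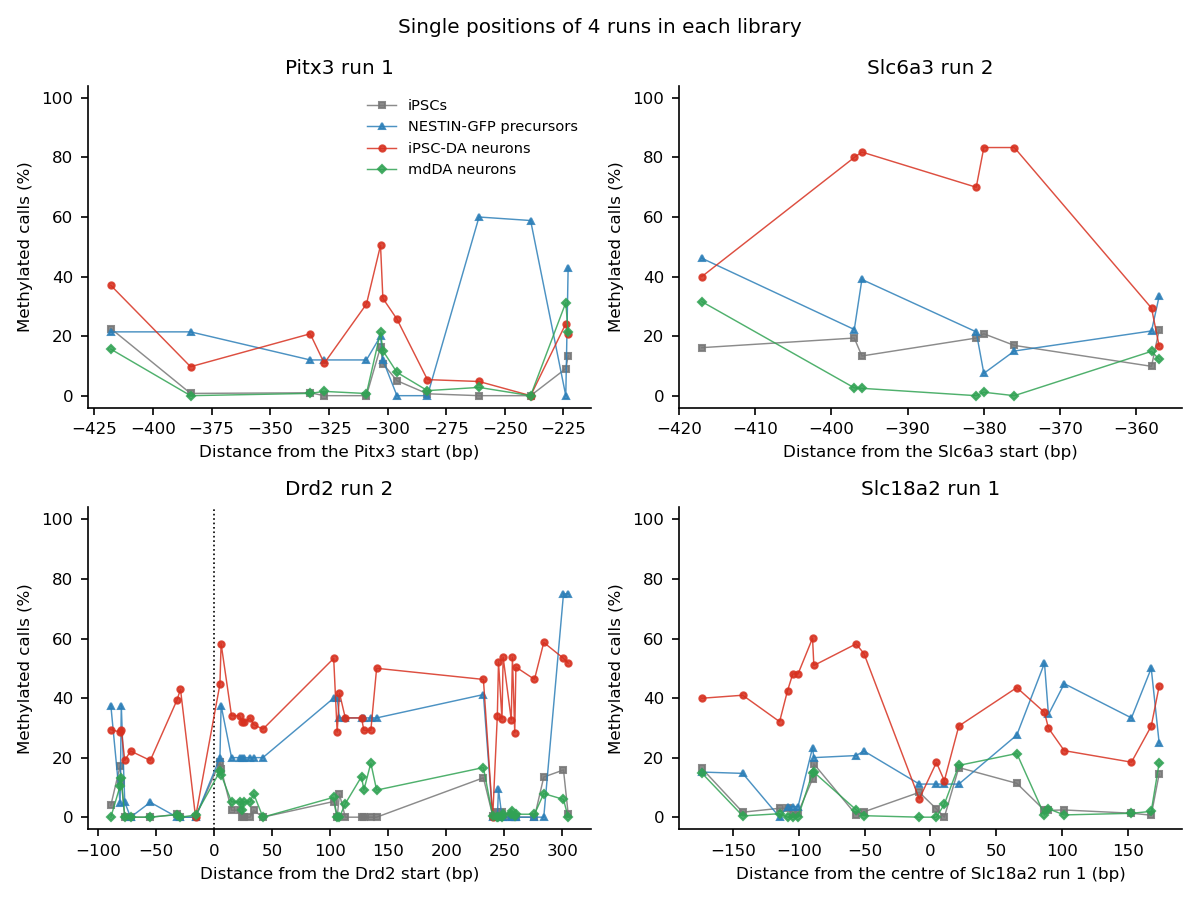
Single positions of Pitx3 run 1, Slc6a3 run 2, Drd2 run 2 and Slc18a2 run 1, with the distance in bp from the start, or for Slc18a2 from the centre of the run, on the x axis, and the methylated calls in percent on the y axis, for the 4 libraries. In Drd2 run 2 the iPSC-DA points lie between 19% and 58.7%, apart from 2 positions at 0%, and the mdDA points do not exceed 18.2%.

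The comparisons among the cultured libraries used the same iPSC and iPSC-DA libraries in turn and are given side by side. The precursors came from another reporter line, so stage and line cannot be told apart in the comparisons with them. From iPSCs to iPSC-DA neurons, 9 of the 15 runs were called higher and 0 lower, with 37.4% of all runs called higher and 0.83% lower. No member run exceeded 17.0% in iPSCs, so calls of lower than iPSCs were not possible here or in precursors. From iPSCs to NESTIN-GFP precursors, 3 runs were called higher and 0 lower, all at Nr4a2 (runs 6, 8 and 12), with 34.8% of all runs called higher and 0.0285% lower. The count of higher members was 13 of 35 with runs of at least 1 position (44.7% of all runs) and 9 of 18 with positions of at least 1 call (42.3% of all runs). In Fisher's exact test at any size, 13 of the 15 runs had an adjusted p-value under 0.05 from iPSCs to iPSC-DA neurons and 12 from iPSCs to precursors, against 66.6% and 76.1% of all runs. The median differences of the members were 30.5 and 15.3 points, and those of all runs 7.82 and 10.5 points. Just under the limit for the precursors lay Nr4a2 run 9 with 19.9 points, Pitx3 run 4 with 18.9 and Drd2 run 3 with 18.1. From precursors to iPSC-DA neurons, 4 runs were called higher and 1 lower, with 11.3% and 12.1% of all runs, respectively, and 9 runs had an adjusted p-value under 0.05 at any size, against 65.8%. The balance of higher and lower runs depended on the setting, with 6 higher and 8 lower of 35 for runs of at least 1 position (4.26% and 21.9% of all runs), 2 and 3 of 13 for gaps under 200 bp (9.66% and 13.1%) and 3 and 3 of 18 for positions of at least 1 call (8.95% and 17.4%). In the runs as defined, the higher ones were Nr4a2 run 7 by 36.5 points, Nr4a2 run 9 by 28.2, Drd2 run 2 by 26.1 and Slc6a3 run 2 by 23.3. The lower one was Nr4a2 run 12, with 75.5% in precursors and 46.3% in iPSC-DA neurons, a difference of 29.2 points. Nr4a2 run 8 was at 56.0% in precursors, which differed by 3.66 points from iPSC-DA neurons (adjusted p = 0.538, Fisher's exact test).

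Both mdDA neurons and iPSCs had low levels at these runs. Between them 0 of the 15 runs were called in either direction, whereas 16.3% of all runs were called higher and 1.68% lower in mdDA neurons. With levels of at most 10.7% in mdDA neurons and 17.0% in iPSCs, the member runs could not differ by 20 points. In Fisher's exact test at any size, 4 of the 15 runs had an adjusted p-value under 0.05, against 44% of all runs. The median difference was 0.97 points over the member runs and 1.41 points over all runs. The largest difference was that of Slc6a3 run 2 (-9.63 points), followed by Nr4a2 run 12 (-5.48 points). The precursor library had fewer calls, and in 32.7% of its neighbouring position pairs both positions had the same methylated and total calls, compared with 6.85% to 13.4% in the other libraries.

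The gene windows were set side by side by their level over all positions covered in the 4 libraries. In iPSC-DA neurons the level was 20.01% at Pitx3, 26.8% at Nr4a2, 39.5% at Drd2, 39.96% at Slc6a3, 41.2% at Slc18a2 and 58.9% at Th. The intervals of Drd2 (38.1% to 41.0%), Slc6a3 (37.0% to 43.0%) and Slc18a2 (39.4% to 43.0%) overlapped, and those of the other genes did not overlap with a neighbour. In mdDA neurons the levels were 7.7% at Pitx3, 6.09% at Nr4a2, 11.3% at Drd2, 10.1% at Slc6a3, 8.16% at Slc18a2 and 63.0% at Th. The differences were 12.3 points at Pitx3, 20.7 at Nr4a2, 28.2 at Drd2, 29.9 at Slc6a3 and 33.1 at Slc18a2, compared with -4.15 at Th. The windows differ in the share of CpG-rich positions, so that these values describe what was covered and do not rank the genes by a test. Over all 356 positions, 264 were higher in iPSC-DA neurons, 142 of them by at least 20 points. In mdDA neurons 58 were higher, 8 of them by at least 20 points. The share over all positions of the genome was not computed, so these counts do not set the genes apart from it.

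The 20 runs with fewer than 5 positions were not tested. Their differences between iPSC-DA and mdDA neurons ranged from -55 to 89.2 points, with 7 higher and 3 lower by at least 20 points. The largest was Nr4a2 run 11 (2 positions, 13778 to 13814 bases downstream), at which 31 of 31 calls were methylated in iPSC-DA and 9 of 83 in mdDA neurons. The lowest was Th run 4 (2 positions), with 3 of 12 calls in iPSC-DA and 8 of 10 in mdDA neurons. All runs of fewer than 5 positions that are named were chosen after their values were seen.

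CpGs inside CCGG, where reads begin, had higher levels than their neighbours in all 4 libraries under the Nr4a2 and Drd2 promoters. Under the Nr4a2 promoter, 3 positions in CCGG had 15.3% in iPSCs, 6.45% in precursors, 23.8% in mdDA neurons and 15.7% in iPSC-DA neurons, while 26 positions outside CCGG had 1.3% to 1.64%. Under the Drd2 promoter, 4 positions in CCGG had 47.0% in iPSC-DA and 13.8% in mdDA neurons, and 14 positions outside had 29.3% and 1.77%. At Drd2 the iPSC-DA level was above the mdDA level in both classes of position. At Nr4a2 the iPSC-DA level in CCGG was below the mdDA level. The Pitx3 and Slc6a3 promoters each had 2 covered positions in CCGG and 1 outside. In precursors the level in CCGG was lower than outside, with 33.3% and 58.8% at Pitx3 and 25.6% and 40% at Slc6a3. In the other libraries the level in CCGG was the higher at both genes.

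Other genes of dopamine synthesis, storage, breakdown and response were read at their starts where these could be placed. Of 23 gene symbols listed, which include both Drd1 and Drd1a, 17 had a RefSeq promoter and 6 could be placed. Of these, 5 had a tested run at the start or within 500 bases. In iPSC-DA neurons 3 of these 5 were called higher than in mdDA neurons and 0 lower, with a median difference of 24.9 points. Of all tested runs, 24.3% were called higher and 1.66% lower, and 29% were called higher among those under 20% in iPSCs. All 5 were under 20% in iPSCs and in mdDA neurons, so they could not be called lower. The serotonin transporter gene Slc6a4 had 35.4% in iPSC-DA and 1.44% in mdDA neurons, the dopamine receptor gene Drd5 31.5% and 6.57%, and Kcnj6, which encodes the potassium channel subunit GIRK2, 41.2% and 7.94%. The dopamine receptor gene Drd4 had 18.8% and 3.74%, a difference of 15.0 points. Gch1, which encodes the first enzyme in the synthesis of the tetrahydrobiopterin cofactor of tyrosine hydroxylase, had 5.24% and 5.54%, so that its start was low in both DA libraries, as at Nr4a2.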

How the data were processed

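RRBS data of 4 mouse libraries, 1 per cell population, were used. According to the methods and processing notes, single reads of 40 bases were checked with FastQC, trimmed with Trim Galore 0.3.5, and aligned and called with Bismark 0.10.1. The files the authors deposited list cytosine positions, each with its methylated and its unmethylated call count. Under the placed promoters of the members all listed positions fell on CpGs. The deposited percent column was not used, since levels were recomputed from the counts. Strands of a CpG are separate positions, and no normalization or removal of PCR copies is described. The study analysed CpGs with at least 5 reads, whereas the files also list positions with fewer calls. The build was not given in the sources used here, and chromosome lengths fit mm9. Neither sequence nor gene models of mm9 were used.

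The 6 genes, their windows and the lists were chosen with earlier results of these data known. Named runs were those holding the start, with the most positions, and with the largest and smallest difference between the DA libraries. The other tested runs that are named, among them Pitx3 run 1 and Nr4a2 runs 6, 7, 9 and 12, were chosen after their values were seen. Positions with at least 5 calls in all 4 libraries and gaps under 100 bp formed runs. Runs of at least 5 positions were compared by Fisher's exact test (two-sided, pooled calls), adjusted over all runs of the genome. The test treats linked calls as independent, so that p-values are too small. The planned rule for placing starts placed none. A rule chosen after seeing the data took a place at which at least 90% of the covered positions, and at least 8, fell on the CpGs of the RefSeq promoter (250 bases before to 50 after the start), with at most 0.5 times as many at the next best place. Limits for counts of 0 are 3 calls. Code was tested on simulated data and ran in Python 3.11.15 with numpy 2.4.6, pandas 2.3.3, scipy 1.17.1 and matplotlib 3.10.9. Alternatives were other minimum calls, gaps, run lengths and differences, coverage in the compared libraries alone, merged strands, unweighted means and the most covered positions left out.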

Additional observations from a re-analysis of the deposited data

How the results depend on the processing

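The direction of the difference between iPSC-DA and mdDA neurons was kept in all 15 runs under each alternative that gave them a value. Over the alternatives of single runs, 131 kept their side of the limits and 7 lost a call, 5 of them at Pitx3 run 4 (9.76 to 18.7 points) and 2 at Nr4a2 run 7 (10.8 and 10.2 points). These are not counts of separate checks. The minimum number of positions could not change the difference of a run, and leaving out the most covered positions changed none. Where runs were joined, the joined run was scored for each, as at Pitx3 run 5 and Nr4a2 run 2. No paired analysis was possible because each population had 1 library, and no library could be left out. With at least 1 position per run, 35 member runs were tested. Of these, 16 were called higher and 2 lower in iPSC-DA than in mdDA neurons (13.7% and 7.35% of all runs), 15 higher and 2 lower in iPSC-DA neurons than in iPSCs (31.8% and 3.9%), 13 higher in precursors than in iPSCs (44.7%), 6 higher and 8 lower in iPSC-DA neurons than in precursors (4.26% and 21.9%), and 2 higher and 2 lower in mdDA neurons than in iPSCs (23.9% and 3.36%). With at least 10 positions per run, 5, 5 and 2 of 9 runs were higher in iPSC-DA neurons than in mdDA neurons, iPSCs and precursors (27.6%, 33.4% and 16.1% of all runs). The count of 3 runs higher in precursors than in iPSCs was 9 of 18 with a minimum of 1 call (42.3% of all runs). It was 7 of 16 with merged strands (33.2%). Gaps under 50 bp gave 6 of 19 (29.7%) and gaps under 200 bp 5 of 13 (38.3%). A difference of at least 10 points gave 9 of 15 and unweighted means 6 of 15, with no share of all runs computed. From precursors to iPSC-DA neurons, 2 of 13 runs were higher with gaps under 200 bp (9.66% of all runs). With a difference of at least 30 points, 1 of 15 was higher and 0 were lower. Lower were 3 of 18 with a minimum of 1 call (17.4%) and 2 of 19 with gaps under 50 bp (10.8%). Gaps under 200 bp gave 3 of 13 lower (13.1%), and at least 10 points 2 of 15. No share of all runs was computed for the limits of 10 and 30 points. In mdDA neurons against iPSCs, 1 of 18 runs was higher with a minimum of 1 call (18.1% of all runs). With coverage in these libraries alone, 1 of 16 was higher (17.0%). Window differences between the DA libraries moved past their intervals with unweighted means, to 10.7 at Pitx3, 16.7 at Nr4a2, -17.1 at Th, 41.3 at Slc6a3, 28.1 at Slc18a2 and 25.5 at Drd2. With a minimum of 10 calls they were 11.1 at Pitx3 and 21.7 at Nr4a2, and at Nr4a2 19.8 with a minimum of 1 call, 19.6 with coverage in the DA libraries alone and 19.9 with merged strands. At Th a minimum of 10 calls left 2 positions with a difference of 3.85 points, inside the interval. The NESTIN-GFP library limited which positions could be compared and how finely, with a median of 17 calls at the member positions.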
